A study of Caenorhabditis elegans with 2 samples.

Results

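The vulva of the *C. elegans* hermaphrodite is built from a row of epidermal precursor cells, and 10 transcription factor genes that act in these cells or their descendants were examined for binding by the Hox protein LIN-39. They are *egl-18*, *elt-6*, *ref-2*, *nhr-25*, *lin-11*, *cog-1*, *egl-38*, *nhr-67*, *bed-3* and *vab-23*, chosen by name for their roles in the vulva from the 19973 protein-coding genes of the annotation. A peak was assigned to a gene where its summit lay in the gene body or up to 2000 bp upstream, a span called the window here, so a peak can belong to the windows of neighbouring genes. LIN-39 binding was measured by ChIP-seq, in which DNA bound by a protein is precipitated and sequenced, in 2 biological replicates of a single group of whole L3 larvae. The animals were of both sexes, pooled, and of strain OP18, whose genotype is given as *unc-119(ed3)* III with the insertion *wgIs18*, a transgene for eGFP-tagged LIN-39. No lesion of the endogenous *lin-39* gene is listed. The labels give no second genotype, stage or treatment, so no comparison between conditions was possible and no test was made.

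LIN-39 is the Hox protein of the midbody. It acts early to keep the vulval precursor cells from fusing with the surrounding epidermis, and again in L3, when signalling through EGF receptor, Ras and Notch sets their fates. Downstream of those signals, combinations of transcription factors give each vulval cell its lineage, its divisions and its shape. Hox proteins often bind DNA together with Pbx-type partners, in the worm CEH-20, at composite sites of the form TGATNNAT. The precursor cells and their daughters are a small share of a whole larva, and LIN-39 is also present in neurons, muscle and other epidermal cells. Binding in few cells and weak binding in many cannot be told apart in such samples, and the absence of a peak does not show absence of binding in the vulva.

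The strongest peaks are shown first by their DNA on the ce11 build, from the RefSeq genome sequence, each read on the strand of its gene. The stretches reach 50 bases to either side of the pooled summit, and farther where that was needed to take in a motif. Capitals in *vab-23* and *bed-3* mark matches to TGATNNAT. Capitals in *egl-18* mark a run of 11 bases that the gene's strongest peaks share, which was found by comparing these sequences after they had been read out. The first 4 are the strongest peak of *egl-18*, that gene's next strongest peak, and the strongest peaks of *vab-23* and *nhr-25*. The last sequence is the only printed peak other than that of *vab-23* with a TGATNNAT match. None of the sequences overlaps an annotated UTR.
egl-18 intron 1, strongest peak, chrIV:1906922-1907022, plus strand: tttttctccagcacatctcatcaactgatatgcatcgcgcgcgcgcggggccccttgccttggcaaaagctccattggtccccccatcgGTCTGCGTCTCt
egl-18 intron 1, second peak, chrIV:1904010-1904110, plus strand: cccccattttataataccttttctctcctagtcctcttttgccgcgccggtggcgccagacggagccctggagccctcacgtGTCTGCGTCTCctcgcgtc
vab-23 upstream, chrII:11902388-11902528, minus strand: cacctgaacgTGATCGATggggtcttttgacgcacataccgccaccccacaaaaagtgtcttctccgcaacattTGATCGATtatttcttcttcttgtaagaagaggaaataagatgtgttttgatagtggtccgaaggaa
nhr-25 intron 1, chrX:13008614-13008714, plus strand: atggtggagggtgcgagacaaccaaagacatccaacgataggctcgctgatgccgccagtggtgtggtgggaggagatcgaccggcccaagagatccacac
bed-3 intron 5, chrIV:9919995-9920129, plus strand: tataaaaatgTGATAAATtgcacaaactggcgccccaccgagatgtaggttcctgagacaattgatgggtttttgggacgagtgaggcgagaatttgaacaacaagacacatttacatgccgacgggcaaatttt

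The authors deposited 4 peak lists that were used. The optimal list holds 4250 peaks thresholded for reproducibility, and the pooled relaxed list of both replicates holds 30000, of which the optimal peaks are those of highest signal. The relaxed lists of the single replicates hold 30000 peaks in replicate 1 and 27572 in replicate 2. Relaxed lists are meant to include background. The signal of a peak is the peak caller's own value, on a scale that differs between lists (median 11.9 in the pooled list, 7.71 in replicate 1 and 5.86 in replicate 2), so peaks are placed by their rank within a list, with rank 1 the strongest. Read depth is unknown, since the lists hold no read counts.

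Of the 10 genes, only *egl-18* had a summit of the optimal list in its window. Among all protein-coding genes 19.2% had one. In the pooled list 6 of the 10 genes had a summit, beside 61.5% of all genes. Replicate 1 gave 9 of 10 beside 66.6%, and replicate 2 gave 7 of 10 beside 53.5%. A summit in the lists of both replicates was found for 6 genes (*egl-18*, *ref-2*, *nhr-25*, *cog-1*, *bed-3* and *vab-23*) beside 45.0% of all genes. When each replicate's own 4250 strongest peaks were used, *egl-18* was again the single gene with a summit, beside 18.3% of all genes in replicate 1 and 19.0% in replicate 2. In the pooled list the 10 genes were thus close to the share over all genes, and in the optimal list, at 1 of 10, under it. In the relaxed lists of the replicates they were above it, a difference that was not tested. These shares are not matched for window length, and the windows of the 10 genes are long. For the replicates' lists no share at like window length was counted.

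**Figure D1:**
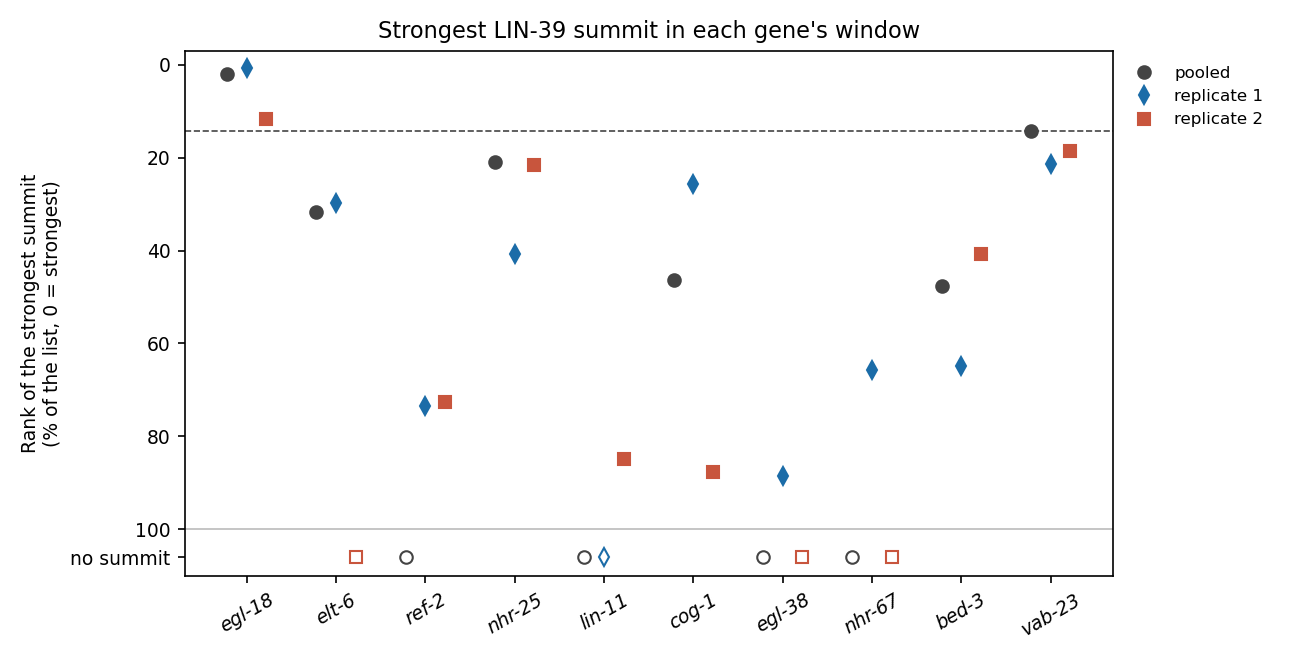
Rank of the strongest LIN-39 summit in each gene's window, as a percentage of the list (vertical axis, 0 is the strongest peak), in the pooled list (circles), replicate 1 (diamonds) and replicate 2 (squares); open symbols stand for no summit and the dashed line is the end of the optimal list. Only *egl-18* lies above the line in the pooled list, and *vab-23* lies just below it.

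*egl-18* and its neighbour *elt-6* encode GATA factors that keep the vulval precursor cells unfused, and *egl-18* has been described as a target of LIN-39 in these cells. The genes lie in tandem on chromosome IV, *egl-18* at 1902322 to 1917840 and *elt-6* at 1917977 to 1921643, both on the plus strand and 136 bp apart. The optimal peak of *egl-18* spans 1906814 to 1907129 with its summit at 1906972, in intron 1 of the longest transcript, F55A8.1a.2. This intron is 11092 bp long. The summit was 4650 bp downstream of the gene's start and 6474 bp upstream of the next start, that of transcript F55A8.1b.1, which begins at 1913446. The peak had a pooled signal of 94.0 (rank 616), a signal of 71.0 in replicate 1 (rank 220) and a signal of 23.9 in replicate 2 (rank 3237). The summit fell on the same base in replicate 1 and 8 bp away in replicate 2. The peak was therefore among the 4250 strongest of each replicate, at a much higher rank in replicate 1.

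The window of *egl-18* held 13 pooled summits, 14 summits of replicate 1 and 12 of replicate 2. Of the 13, 7 lay in intron 1. The second strongest, with its summit at 1904060 and 1738 bp into the gene, had a pooled signal of 25.6 (rank 5835), 26.7 in replicate 1 (rank 1875) and 8.57 in replicate 2 (rank 10099). The summit of replicate 1 was 26 bp from the pooled one and that of replicate 2 was 289 bp from it. The replicate 2 peak, from 1903599 to 1903942, met only the edge of the pooled peak, which begins at 1903902. It may be a neighbouring peak. Downstream of intron 1 the peaks came mainly from replicate 1. The summits at 1913991 in a coding exon (pooled signal 15.8) and at 1915099 in intron 4 (pooled signal 17.6) overlapped peaks of replicate 1 alone, with ranks of 4887 and 4762 there. Over the whole window, 9 of the 13 pooled peaks overlapped peaks of both replicates, and the other 4 overlapped replicate 1 only. Of the 9, only 3, at 1906972, 1908627 and 1911481, had a summit within 100 bp of the pooled one in both replicates. The 9 also include 2 pairs of neighbouring pooled peaks, each pair meeting the same replicate peaks. Intronic summits at 1905347 and 1908627 also lay inside the annotated noncoding RNA genes F55A8.5 and F55A8.4. The strongest peak's summit in replicate 2, at 1906980, lay inside the noncoding gene F55A8.3, while its pooled summit lay just outside.

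*elt-6* had 3 pooled summits, and all 3 overlapped a peak of replicate 1 and none of replicate 2, whose list held no summit in this window. The strongest, at 1917775, had a pooled signal of 17.01 (rank 9544) and a signal of 10.5 in replicate 1 (rank 8924). It lay 202 bp upstream of the *elt-6* start and inside the last exon of *egl-18*, in its 3′ UTR, so it counts for both genes. The summit at 1916533, with a pooled signal of 7.11, was shared in the same way. The summit at 1920136, in intron 5 of *elt-6*, was the only one of its own, with a pooled signal of 12.9 (rank 13407) and a signal of 8.57 in replicate 1 (rank 12638). The nearest optimal summit was that of *egl-18*, 9005 bp outside the *elt-6* window.

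**Figure D2:**
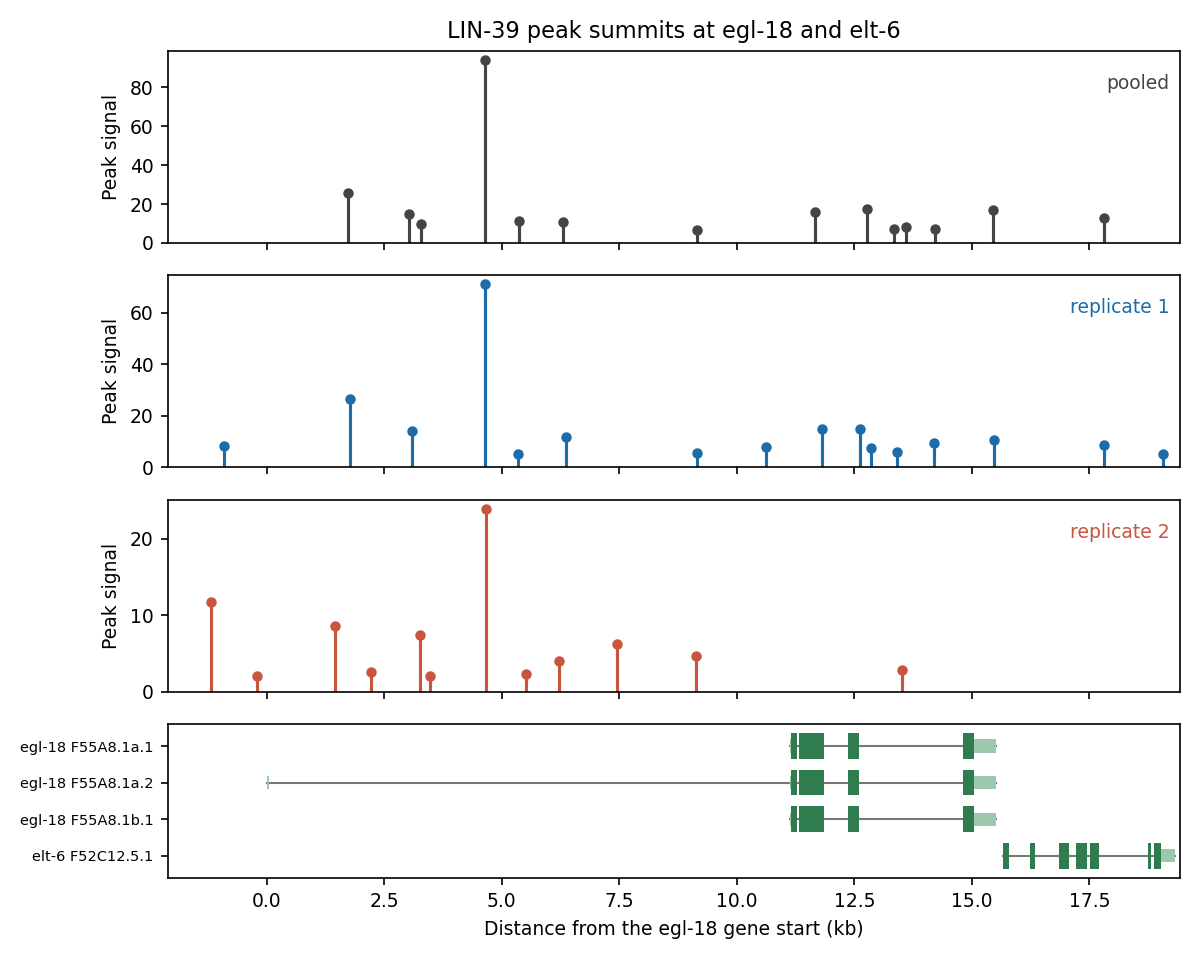
Pooled and replicate LIN-39 peaks across *egl-18* and *elt-6*: the horizontal axis is the distance from the *egl-18* start in kb, the vertical axis the authors' signal in each list, and the exons are drawn below. The tallest peak, in intron 1 of *egl-18*, stands at the same place in all lists, while over *elt-6* peaks appear in the pooled list and replicate 1 but not in replicate 2.

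*ref-2* and *nhr-25* also act in the precursor cells before their fates are set. *ref-2* encodes a Zic-type zinc finger protein that helps keep these cells unfused. It lies at X:7744239-7750013 on the plus strand and had no pooled summit. Replicate 1 had a summit of signal 5.85 (rank 22011) and replicate 2 one of signal 3.51 (rank 20041), at 7745512 and 7743479, so they were at different places and weak in both lists.

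*nhr-25* encodes a nuclear receptor related to fly Ftz-F1, needed for the divisions of the precursor cells and for moulting. It lies at X:13008493-13013964 on the plus strand and had 3 pooled summits. The strongest, a peak from 13008506 to 13008821 with its summit 171 bp into the gene in intron 1 of transcript F11C1.6a.2, had a pooled signal of 24.1 (rank 6279). It had a signal of 8.75 in replicate 1 (rank 12224, summit 44 bp away) and of 14.8 in replicate 2 (rank 5967, summit 16 bp away). Both replicates thus placed it at the start of the gene, and replicate 2 ranked it higher. For the shorter transcripts F11C1.6a.1 and F11C1.6b.1 the same summit is upstream of the start. The summit at 13009829, inside the noncoding RNA gene F11C1.16 in intron 4, had a pooled signal of 14.6 and overlapped a peak of replicate 2 alone, of signal 10.2. The third, in a coding exon, had a pooled signal of 8.13 and overlapped no peak of either replicate.

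*lin-11*, *cog-1*, *egl-38* and *nhr-67* divide the vulval cells into their types. *lin-11* encodes a LIM homeodomain protein needed for the lineages of the outer vulval cells and for uterine cells. It lies at I:10248288-10255327 and had no summit in the pooled list or in replicate 1. Replicate 2 gave 2 summits, the stronger of signal 2.75 (rank 23390 of 27572). *egl-38*, a Pax-type gene that sets apart cells of the inner vulva and the uterus, lies at IV:10106599-10110517 on the minus strand. It had no pooled or replicate 2 summit, and 2 in replicate 1, the stronger of signal 4.97 (rank 26591). That summit, 425 bp upstream of *egl-38*, lay inside the gene *spch-1* and also in the window of *nsph-3.2*. *nhr-67* encodes a nuclear receptor related to fly tailless that acts in the anchor cell, the source of the inductive signal, and in the vulva, and lies at IV:11169748-11174791. It had 1 summit, in replicate 1, of signal 6.35 (rank 19741). For these 3 genes no peak was shared by the replicates, and each had all of its summits in the weaker part of a single replicate's list.

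*cog-1* encodes an Nkx-type homeodomain protein that separates the fates of outer and inner vulval cells. It lies at II:14902493-14907533 and had 2 pooled summits. The stronger, at 14904797, had a pooled signal of 12.6 (rank 13872) and a signal of 11.4 in replicate 1 (rank 7719), with no overlapping peak in replicate 2. It fell in a coding exon of transcript R03C1.3a.1 that is 5′ UTR in R03C1.3b.1. The weaker, at 14907036 near the gene's end, had a pooled signal of 9.01, a signal of 6.01 in replicate 1 (rank 21249) and of 2.59 in replicate 2 (rank 24150). The coding transcript start nearest to it was that of R03C1.1.

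*bed-3* and *vab-23* act late, in the last divisions and in shaping the tube of the vulva. *bed-3* encodes a BED-type zinc finger protein and lies at IV:9916524-9921967 on the plus strand. Its 5 pooled summits had signals of 7.51 to 12.3. The strongest, at 9920079 in intron 5, had a pooled signal of 12.3 (rank 14273), 5.27 in replicate 1 (rank 24927) and 7.58 in replicate 2 (rank 11206), and lay inside the noncoding RNA gene F25H8.8. It was the only one of the 5 that overlapped peaks of both replicates.

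*vab-23* encodes a zinc finger protein that acts downstream of EGF receptor signalling in vulval morphogenesis. It lies at II:11897365-11901210 on the minus strand. Its strongest peak runs from 11902280 to 11902595, with the summit 1228 bp upstream of the gene, and had a pooled signal of 32.9 (rank 4281). It had a signal of 12.7 in replicate 1 (rank 6443, summit 74 bp away) and of 16.9 in replicate 2 (rank 5116, summit on the same base). Both replicates thus held it at like ranks, with the summits close together. The weakest optimal peak had a signal of 33.1 at rank 4250, so the *vab-23* peak stood 31 ranks below the end of that list. Its −log10 q-value was at the ceiling of 3.95 that all optimal peaks share, as were those of 226 pooled peaks in all below the optimal list. The other 4 pooled summits of *vab-23* had signals of 7.05 to 13.9. Of these, the one 100 bp upstream of the start (13.9, rank 12224) and the one in intron 1, 138 bp upstream of the start of transcript ZK930.3b.1 (12.3), overlapped peaks of replicate 2 alone. The remaining 2 overlapped none.

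**Figure D3:**
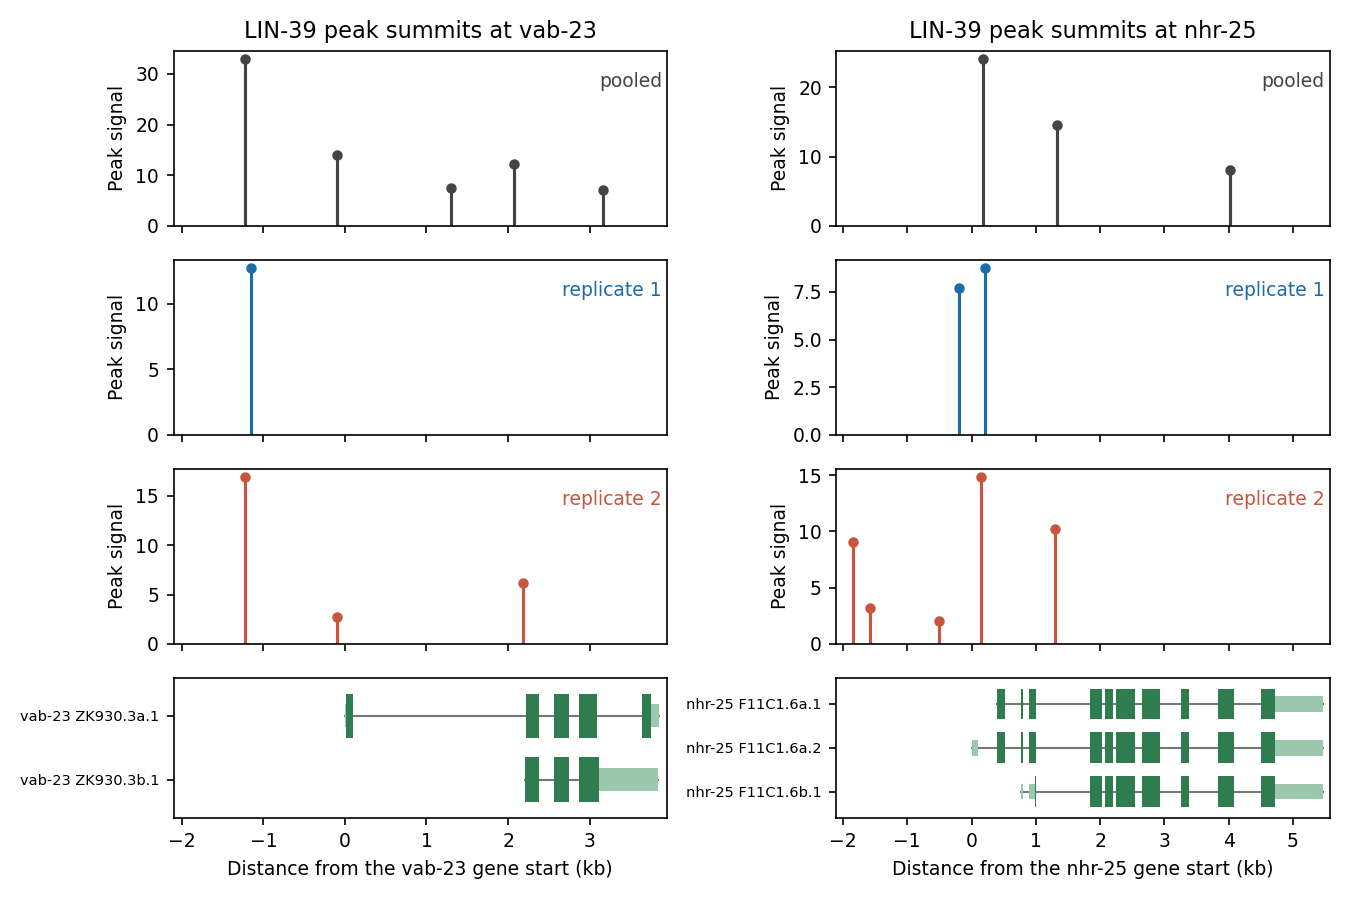
Pooled and replicate LIN-39 peaks at *vab-23* and *nhr-25*: the horizontal axis is the distance from the gene start in kb, along the direction of transcription, and the vertical axis the authors' signal in each list. The tallest *vab-23* peak is 1228 bp upstream and that of *nhr-25* 171 bp inside the gene, and both stand in all 3 lists.

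**Figure D4:**
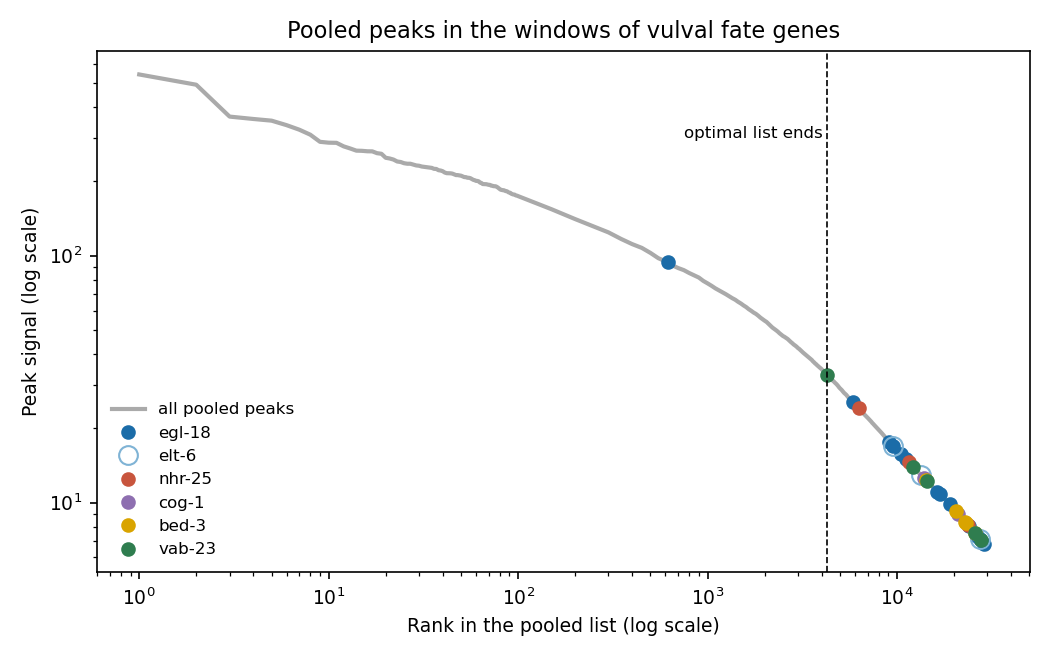
Pooled signal against rank in the pooled list (both log scales, grey line), with every pooled peak in the windows of the 6 genes that have one (coloured points; the dashed line is the end of the optimal list). The strongest *egl-18* peak lies at rank 616 within the optimal list, that of *vab-23* at rank 4281 just past its end, and the strongest peaks of the other genes at ranks 6279 to 14273.

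The distance from a window to the nearest optimal summit varied widely among the 9 genes without one. It was shortest at *nhr-67*, 4626 bp, where that summit was nearest to the start of *cpt-2*. It was 7208 bp at *lin-11*, 7902 bp at *vab-23* and 9664 bp at *ref-2*. It was 16702 bp at *egl-38*, 17037 bp at *nhr-25* and 30040 bp at *bed-3*. *cog-1* lay farthest, 85364 bp from an optimal summit. Over the 16131 protein-coding genes with no optimal summit the median was 12320 bp, and 5.06% of them were as far from one as *cog-1*.

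Across the 10 windows the pooled list held 29 distinct summits. Of these, 13 (44.8%) overlapped peaks of both replicates, 8 (27.6%) replicate 1 only, 4 (13.8%) replicate 2 only and 4 neither. Over all pooled peaks 40.1% overlapped both, 31.9% replicate 1 only and 20.3% replicate 2 only, and 2309 of the 30000 overlapped neither. The share in both was above that of all pooled peaks only by this rule of 1 bp of overlap. With at least 50% of the pooled peak overlapped it was 9 of 29 (31.0%, beside 31.8%). With summits within 100 bp it was 6 of 29 (20.7%, beside 26.6%). Of the 29 peaks, 28 lay below the optimal list, whereas all pooled peaks include that list. Among pooled peaks below it, 12 of the 28 (42.9%, beside 31.0%) overlapped both replicates by 1 bp and 8 (28.6%, beside 22.1%) by 50%. With summits within 100 bp it was 5 (17.9%, beside 16.8%). Beside these peaks the share was thus above or close by each rule, a difference that was not tested. By the rule of 1 bp, *egl-18* had 9 of the 13 shared peaks, *nhr-25*, *cog-1*, *bed-3* and *vab-23* had 1 each and *elt-6* none. With summits within 100 bp, *egl-18* had 3 of the 6, *nhr-25*, *bed-3* and *vab-23* had 1 each and *cog-1* none. By place, 19 of the 29 summits (65.5%) lay in introns, which make up 56.0% of the window bases. Coding exons held 5 (17.2%, beside 14.7% of the bases) and 3′ UTRs 2 (6.90%, beside 5.71%). Upstream sequence held 3 (10.3%) and makes up 23% of the bases. A summit in an intron of the longest transcript was counted as intronic even where it lay upstream of the gene's other transcripts. The 7 summits in intron 1 of *egl-18* were of this kind. Each replicate also had summits in these windows with no pooled peak, 9 of 29 in replicate 1 and 12 of 28 in replicate 2. The same shares over all peaks of a replicate were not counted, so whether these counts are particular to the 10 genes is not known.

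The number of summits in a window rises with its length, and these windows are long. That of *egl-18* is 17519 bp, and among the 377 protein-coding genes with windows at least as long, 55.4% had an optimal summit and 97.6% a pooled one, with a median of 8 pooled summits. The other 9 windows run from 5667 to 9040 bp. Among the 3069 genes with windows in that range, 27% had an optimal summit and 79.4% a pooled one, with a median of 2 pooled summits. None of the 9 genes had an optimal summit and 5 had a pooled one. Per 10 kb of window, the 10 genes had 0.124 optimal summits beside 0.461 over all genes, and 3.84 pooled summits beside 3.19. Without *egl-18* the pooled value was 2.85. In replicate 1 the 10 genes had 3.84 summits per 10 kb beside 3.29 (2.69 without *egl-18*), and in replicate 2 they had 3.47 beside 2.76 (2.53 without it). In all 3 relaxed lists the 10 genes were thus above all genes with *egl-18* and below them without it.

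**Figure D5:**
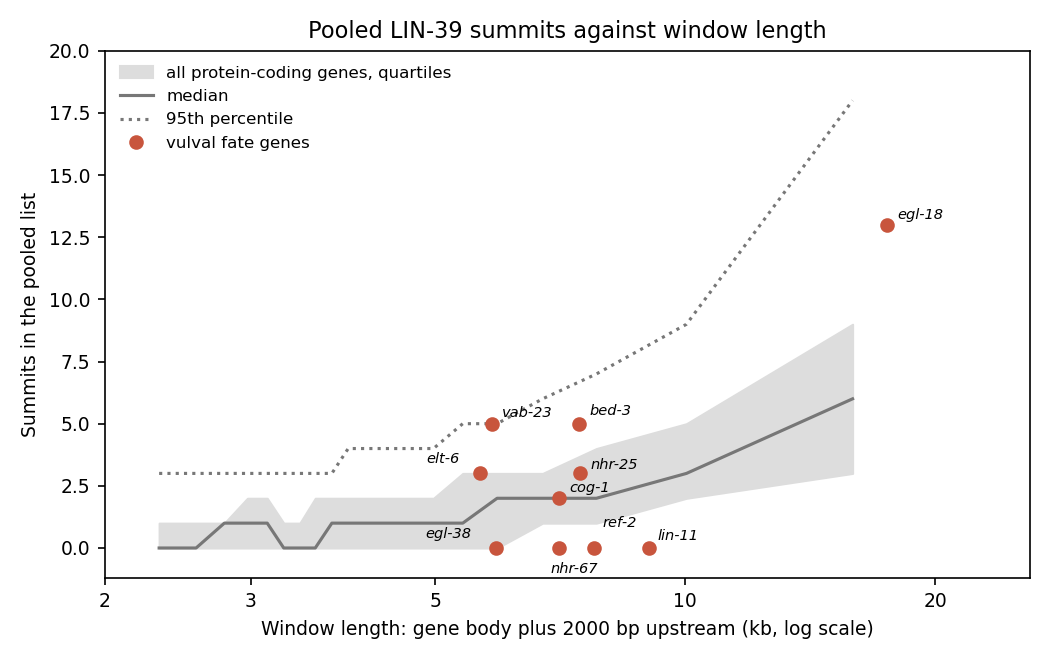
Pooled summits in a window (vertical axis) against window length in kb (horizontal axis, log scale) for the 10 genes (points), with the median, quartiles and 95th percentile over all protein-coding genes of like length. *egl-18*, with 13 summits, is above the upper quartile and below the 95th percentile of the longest windows drawn, and the genes with no summit lie at or below the band.

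The Hox-Pbx motif TGATNNAT, searched on both strands, lay wholly within 50 bp of 1 of the 29 summits (3.45%), beside 7.93% of all pooled peaks and 8.92% of optimal peaks. The 1 peak was the upstream peak of *vab-23*. It held 2 copies of the motif with the same letters, TGATCGAT, on the gene's strand, 9 bp and 73 bp from the summit and shown in capitals above. The summit of this peak in replicate 1, at 11902364, had no copy within 50 bp. Of all pooled peaks, 4.14% held 2 or more TGATNNAT matches anywhere in the peak and 1.21% held TGATCGAT. Within the whole peak, 6 of the 29 held the motif (20.7%, beside 22.4% of all pooled peaks). These were 3 peaks of *egl-18* and 1 each of *cog-1*, *bed-3* and *vab-23*. The strongest *egl-18* peak held none. A match describes letters only, and a lack of one says nothing about the protein. The 101 bases around the summits had an AT content of 39.6% to 72.3% with a median of 54.5%, beside a median of 56.4% in all pooled peaks and 51.5% in optimal peaks. The *egl-18* peaks in capitals above had 41.6% and 39.6% and that of *nhr-25* 40.6%, near the low end of this range.

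For comparison, 17 other transcription factor genes that act in the precursor cells, the vulva or the anchor cell were counted in the same way, as were 12 marker and effector genes of vulval fates. Over all protein-coding genes, 19.2% had an optimal summit and 61.5% a pooled one. Of the 17, 8 had an optimal summit and 16 a pooled one. The 8 were *unc-62* (strongest signal 173) and *ceh-20* (100.3), which encode Hox cofactors, *eor-2* (84.0), *egl-27* (74.0), *mab-5* (43.1), *hlh-2* (42.6), *sem-4* (39.3) and *pop-1* (36.2). In replicate 2 the optimal peak of *hlh-2* met a peak of rank 15989 and that of *pop-1* one of rank 22925, far down that list. *lin-39* itself had no summit in any list. Of the 12 markers and effectors, 3 had an optimal summit, namely *egl-17* (62.4), a fibroblast growth factor gene, *ceh-2* (36.4) and *lin-12* (35.4), the Notch receptor gene, and 10 had a pooled one. The 10 vulval fate genes, with 1 of 10, stand beside these counts. The lists are short, differ in window length and were chosen with earlier results of these data known. Their difference was not tested.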

How the data were processed

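eGFP-LIN-39 ChIP-seq peak lists of 2 biological replicates were used as deposited on ce11: the optimal list, the pooled relaxed list and each replicate's relaxed list. The ce10 lists were not used here. Text indexes that the authors deposited name the same control alignments for either replicate, so the replicates share part of their input. Which aligner and peak caller were run, and with what threshold, is not given in the sources used. Fragments were size-selected, per the labels.

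The signal of each peak is the peak caller's value as deposited by the authors and served to rank the peaks of a list. Deposited −log10 q-values reach a ceiling and were used for description only. The summit offset from the peak's start, as deposited, gave the summits. The optimal list equals the 4250 pooled peaks of highest signal, as checked on the files. Depth is unknown, so no interval is given.

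Gene windows (body plus 2000 bp upstream) were built from Ensembl release 115, and sequences were read from the RefSeq genome of the same assembly. A pooled peak counted as found in a replicate at an overlap of at least 1 bp. Where transcripts differ, a summit was counted in the first class that applied of coding exon, UTR, intron and upstream. Motifs of 8 bases were searched within 50 bp of summits. Named are all 10 genes with their optimal and strongest pooled peaks, and genes of both comparison lists with an optimal summit; weaker peaks, sequences and neighbours were named after their values were seen. The members and lists were chosen with earlier results of these data known. Counting was tested on simulated peaks. Alternatives were other windows, overlap rules, stricter lists, single replicates and other motif settings. Python 3.11.15, numpy 2.4.6 and pandas 2.3.3 were used.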

Additional observations from a re-analysis of the deposited data

How the results depend on the processing

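The number of genes with an optimal summit stayed at 1, *egl-18*, with 1000 or 5000 bp upstream, with 2000 bp downstream added, with any overlap of the peak, in the 1000 strongest optimal peaks, and in the 4250 strongest peaks of either replicate alone. The number with a pooled summit, 6, ranged from 4 in the 10000 strongest pooled peaks to 8 with the longer windows, and was 7 to 9 in the single replicates' lists. Other counts moved. Genes with a summit in both replicates fell from 6 to 2 when the 10000 strongest peaks of each list were used. The share over all genes was not counted for the other windows or for the 10000 strongest peaks. A change in these counts is therefore not a result about the 10 genes. Of the 29 pooled peaks, 13 overlapped both replicates, but 6 had a summit within 100 bp in both, and the share of these peaks went from above that of all pooled peaks (44.8% beside 40.1%) to below it (20.7% beside 26.6%). All pooled peaks include the optimal list, and 28 of the 29 lay below it. Among pooled peaks below that list, the share went from 42.9% (beside 31.0%) to 17.9% (beside 16.8%). The motif count of 1 (3.45%, beside 7.93% of all pooled peaks) became 3 within 100 bp of the summit (10.3% beside 15.1%), 6 anywhere in the peak (20.7% beside 22.4%) and 0 with T or G at position 5 (beside 5.04%). Of 20 counts of pooled summits per gene with other upstream lengths, 16 stayed within 1.5 times and 4 moved, all with 5000 bp upstream: *elt-6* from 3 to 7, *nhr-25* from 3 to 5, and *egl-38* and *nhr-67* from 0 to 1. No paired analysis was possible because the single group gives no test. Depth, which these lists do not record, limits what the weak peaks can show.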

Other observations

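The strongest *egl-18* peaks share the run GTCTGCGTCTC, on the plus strand, 39 bp from the summit at 1906972 and 32 bp from the one at 1904060. The run was noticed in these sequences, so its presence there is no independent result. A search of the whole *egl-18* window found a further copy 17 bp from the summit at 1907688, which had a pooled signal of 11.1, and none outside 50 bp of a pooled summit. The windows of the other 9 genes held no copy. Over all lists, the run lay within 50 bp of the summit in 2.75% of optimal peaks and in 0.474% of the pooled peaks below them. The 6 nuclear chromosomes held 1280 copies, of which 243 (19.0%) lay within 50 bp of a pooled summit.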
